A study of Homo sapiens with 9 samples.

Results

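The transcripts described here are those of the nuclear-encoded subunits of oxidative phosphorylation in Rh30 cells, a human alveolar rhabdomyosarcoma line that carries the PAX3-FOXO1 fusion. Genes were taken by their symbols (the NDUFA, NDUFB, NDUFC, NDUFS and NDUFV series, the SDH genes, the UQCR genes, the COX4 to COX8 subunits and the ATP5F1, ATP5M and ATP5P subunits) wherever a probe set was annotated to that symbol alone. This gave 77 genes with 149 probe sets, of 19775 genes and 54613 probe sets on the array. They comprise 32 genes of complex I, 3 of complex II, 6 of complex III, 17 of complex IV and 17 of complex V, together with 2 pseudogenes (ATP5MC2P1 and COX6A1P1) whose symbols fit the same pattern. NDUFA4, NDUFS5, NDUFS8, NDUFC2, SDHB, UQCRFS1 and UQCRH had no probe set of their own under these symbols and were not analysed here, except that NDUFA4 is given below under its current symbol, COXFA4.

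RNA had been hybridised to Affymetrix U133 Plus 2.0 arrays, 3 per group. Adherent Rh30 cells had been grown as a monolayer in medium with serum. Spheres had been grown from the same line for 48 h in Neurobasal medium with B27 (1X), bFGF (80 ng/ml), EGF (40 ng/ml) and insulin (50 µg/ml). For xenografts, the study's methods describe adherent cells injected into the gastrocnemius muscle of immunodeficient SCID/beige mice, whereas the sample descriptions mention cells from adherent or sphere cultures, placed in Matrigel under the skin of the flank, so that the site and the starting culture of the xenografts are not settled here. All 3 groups thus share the fusion and the parental line, and no untransformed cell and no other line was included, so that spread between arrays does not include spread between tumors of different origin. The mouse cells of a xenograft can reach a human array only through cross-hybridisation, and in such bulk samples fewer cells of a kind and less RNA per cell cannot be told apart. Of the line's own markers, the myogenic factor MYOD1 averaged 11.12 log2 units in adherent cells, 11.07 in spheres and 10.87 on the xenograft arrays, and MYOG, which acts after it, averaged 9.98, 9.06 and 9.98, whereas the related factors MYF5 and MYF6 were dim (2.68 to 3.38) in every group. Of 10 such markers, 5 were lower in spheres (median -0.35) and 4 in xenografts (median -0.28), against 16.3% and 14.3% of all genes.

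Oxidative phosphorylation takes electrons from NADH at complex I and from succinate at complex II, passes them through ubiquinone, complex III and cytochrome c to oxygen at complex IV, and uses the proton gradient that results to drive ATP synthesis at complex V. Most subunits are encoded in the nucleus and imported, and a small number are encoded in mitochondrial DNA, so that complexes I, III, IV and V need transcripts from both genomes. Skeletal muscle is rich in these complexes and uses muscle forms of some complex IV subunits.

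The brightest probe set stands for its gene, a level is a log2 intensity after RMA, and a change is a difference of log2 levels between group means, given with its standard error. Genes were called at a Benjamini-Hochberg adjusted p under 0.05 in a limma fit to all probe sets and all 9 arrays. Levels of different genes were not compared, because probe sets differ in their response.

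Spheres compared with adherent cells showed lower transcript levels for 21 of the 77 genes and higher levels for 7, with a median change of -0.18. Of all 19775 genes, 16.3% were lower and 13.5% higher, and their median change was -0.04. The oxidative phosphorylation genes are mostly bright, 59 of the 77 lying among the 1978 brightest genes, and among the 1833 genes at least as bright as the lower quartile of the 77, 31.2% were lower and 17.6% higher in spheres with a median of -0.09. The share of lower genes among the 77, 27.3%, was thus above that of all genes and not above that of bright genes, whereas the share of higher genes, 9.09%, was below both. The gap between the 3' and 5' controls for ACTB, a measure of RNA integrity and labelling, also moved with this comparison. It was 2.07 to 2.67 log2 units in adherent cells, 3.15 to 3.31 in spheres and 2.30 to 2.75 in xenografts. The same gap for GAPDH overlapped between the groups, at 0.42 to 0.68, 0.59 to 0.67 and 0.41 to 0.64. The part of RNA integrity in the result was not tested.

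Xenografts compared with the same adherent cells went the other way: 16 of the 77 genes were higher and 4 lower, with a median change of 0.16. The corresponding shares of all genes were 12.6% higher and 14.3% lower with a median of 0.08, and of the bright genes 11.5% higher and 22.6% lower with a median of -0.06. Between the xenografts and the spheres, 38 genes were higher and 3 lower, with a median of 0.27, against 25.7% higher and 18.3% lower of all genes (median 0.13) and 28.9% higher and 25.6% lower of bright genes (median 0.02). With each array centred on its median, the xenograft count against adherent cells was 10 higher and 5 lower. The 2 comparisons with adherent cells used the same 3 adherent arrays and are not independent. The xenograft comparison with adherent cells was the least stable of the 3: the number of higher genes was 7 without adherent replicate 2, 9 without adherent replicate 1 and 10 without xenograft replicate 2, and the number of lower genes was 2 without adherent replicate 3 or without xenograft replicate 2.

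**Figure D1:**
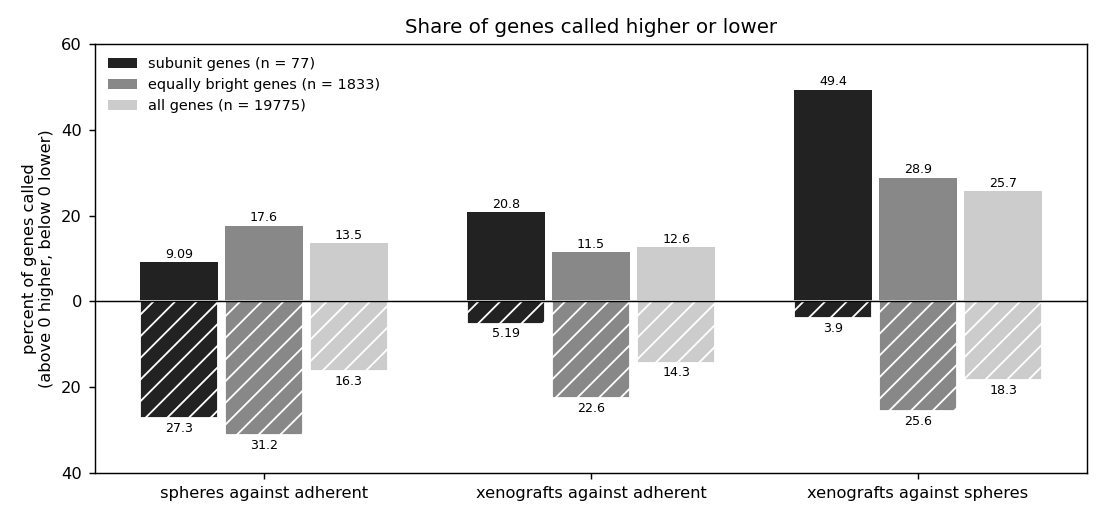
Percent of genes called higher (bars above 0) or lower (hatched bars below 0) in each comparison, for the 77 oxidative phosphorylation genes (black), the 1833 genes at least as bright as their lower quartile (dark grey) and all 19775 genes (light grey). The 77 genes were called lower in spheres at 27.3%, close to the bright genes, and higher in xenografts against spheres at 49.4%, above both backgrounds.

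By the brightest probe set, the changes were small in size. No member reached a 2-fold change against adherent cells in either direction, the extremes being a fall of ATP5MC1 in spheres by 0.82 and a rise of NDUFC1 in spheres by 0.65. Only NDUFS3 and ATP5MC1 reached 2-fold, between xenografts and spheres. On single arrays, the median difference of the 77 genes from the adherent mean was -0.17 on each of the 3 sphere arrays, 0.10, 0.16 and 0.19 on the xenograft arrays, and -0.05 to 0.05 on the adherent arrays, without overlap between groups.

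**Figure D2:**
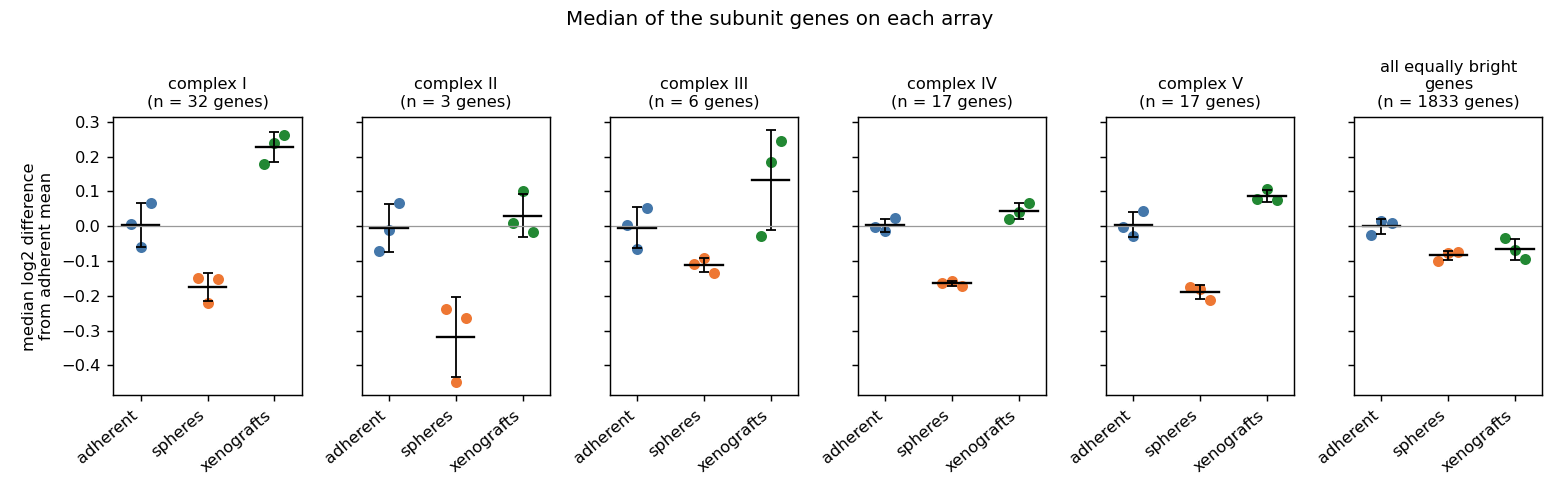
Median log2 difference from the adherent mean over the genes of each complex on each array, with the group mean and SD (n = 3 arrays), and in the last panel the same over genes at least as bright as the lower quartile of the members. Complex I genes lay at -0.22 to -0.15 in spheres and at 0.18 to 0.26 in xenografts, whereas the bright genes lay below 0 in both.

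Complex I, the entry point for electrons from NADH, had the most members. Of its 32 measured genes, 12 were lower and 4 higher in spheres, 10 were higher and 1 lower in xenografts against adherent cells, and 20 were higher and 2 lower in xenografts against spheres, with median changes of -0.18, 0.20 and 0.40. The sphere medians of the other complexes were -0.31 (II), -0.12 (III), -0.18 (IV) and -0.19 (V). The complex I shares were 37.5% lower and 12.5% higher in spheres, beside 16.3% and 13.5% of all genes and 31.2% and 17.6% of bright genes. In xenografts they were 31.2% higher and 3.12% lower, beside 12.6% and 14.3% of all genes and 11.5% and 22.6% of bright genes. The sphere shares were thus nearer to those of bright genes than to those of all genes for lower calls. NDUFS3, a core subunit of the module that reduces ubiquinone, had levels of 9.82, 9.59 and 9.88 on the adherent arrays, 8.96, 9.09 and 9.01 on the sphere arrays and 10.07, 10.14 and 10.24 on the xenograft arrays. The 3 groups did not overlap. Its level fell by 0.75 ± 0.10 in spheres (adjusted p = 0.00019) and rose by 0.39 ± 0.10 in xenografts (adjusted p = 0.018), and the difference between xenografts and spheres, 1.13 ± 0.10, was the largest of any member (adjusted p = 7.0e-06).

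NDUFB10, NDUFB11 and NDUFB6, accessory subunits of the membrane arm that pumps protons, followed the same order. NDUFB11 had levels of 10.53, 10.46 and 10.58 in adherent cells, 9.83, 10.02 and 9.91 in spheres and 10.70, 10.85 and 10.94 on the xenograft arrays. It was lower than adherent cells in spheres by -0.60 ± 0.10 and higher in xenografts by 0.31 ± 0.10 (adjusted p = 0.00063 and 0.04), with no overlap of the 3 groups. NDUFB10 changed by -0.43 and 0.47 and NDUFB6 by -0.43 and 0.34 against adherent cells, and these 4 genes, NDUFS3 included, were the members called lower in spheres and higher in xenografts. A second probe set of NDUFB10 gave -0.38 and 0.35, whereas a second, dim probe set of NDUFB6 (2.78 to 3.68 log2 units) rose by 0.76 in spheres.

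The largest falls of complex I genes in spheres were those of NDUFB7, NDUFS3 and NDUFA9. NDUFB7, another accessory subunit of the membrane arm, measured 10.33, 10.27 and 10.43 in adherent cells, 9.59, 9.52 and 9.66 in spheres and 10.43, 10.60 and 10.61 on the xenograft arrays. The spheres stood apart from both other groups, and the change of -0.75 ± 0.09 was called (adjusted p = 9.6e-05), whereas the 0.20 ± 0.09 of xenografts against adherent cells was not (adjusted p = 0.14). NDUFA9, which sits at the junction of the arms, fell by 0.74 ± 0.11 in spheres (adjusted p = 0.00026), and its xenograft levels of 9.83, 9.95 and 10.15 overlapped the adherent levels of 10.10, 10.13 and 10.26. NDUFA8, NDUFB4, NDUFS6, NDUFA2, NDUFA6 and NDUFB3 were also called lower in spheres (from -0.71 to -0.26) and higher in xenografts than in spheres (from 0.42 to 0.89), but not different from adherent cells in xenografts.

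A smaller number of complex I genes moved upward in spheres. NDUFC1, an accessory subunit of the membrane arm, had levels of 10.09, 10.01 and 10.11 in adherent cells, 10.65, 10.83 and 10.69 in spheres and 10.38, 10.34 and 10.40 on the xenograft arrays. The spheres were highest and the xenografts intermediate without overlap, with changes of 0.65 ± 0.09 and 0.31 ± 0.09 against adherent cells (adjusted p = 0.00018 and 0.028). NDUFB5 rose by 0.42 and 0.34 and NDUFA7 by 0.38 and 0.54 in spheres and xenografts, and NDUFS4 was called in spheres alone (0.37, adjusted p = 0.0098), its xenograft change being 0.26 with an adjusted p of 0.06. By the brightest probe set, these genes were therefore higher away from the monolayer in each setting, except that NDUFS4 did not pass the test in xenografts. A dim second probe set of NDUFC1 gave 0.09 in spheres and -0.28 in xenografts. One of NDUFA7 gave 0.03 and 0.13, and none of these changes was called.

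NDUFS1, the largest core subunit, which carries iron-sulfur clusters in the NADH-oxidising module, was the single complex I gene called lower in xenografts than in adherent cells. Its levels were 9.68, 9.82 and 9.88 in adherent cells, 9.65, 9.67 and 9.64 in spheres and 9.17, 9.52 and 9.33 on the xenograft arrays. The change in xenografts was -0.45 ± 0.11 (adjusted p = 0.0094). Of its 5 probe sets, 4 were called lower in xenografts against adherent cells. Another probe set read 8.06 to 8.22 in adherent cells and 7.12 to 7.20 in spheres, a change of -0.96, and was higher in xenografts than in spheres by 0.59, where the brightest was lower by -0.32. NDUFS7, another core subunit, was called higher in xenografts (0.47 ± 0.13, adjusted p = 0.024), whereas NDUFV1, the flavin-binding core subunit that accepts electrons from NADH, was not called in any comparison. By module, 13 of the 18 membrane arm genes were called higher in xenografts than in spheres, with a median of 0.43. So were 3 of the 4 genes in the ubiquinone-reducing module (median 0.57) and 4 of the 10 in the NADH-oxidising module (median 0.18). Beside these, 25.7% of all genes (median 0.13) and 28.9% of bright genes (median 0.02) were higher. The modules are small, and a difference between them was not tested.

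**Figure D3:**
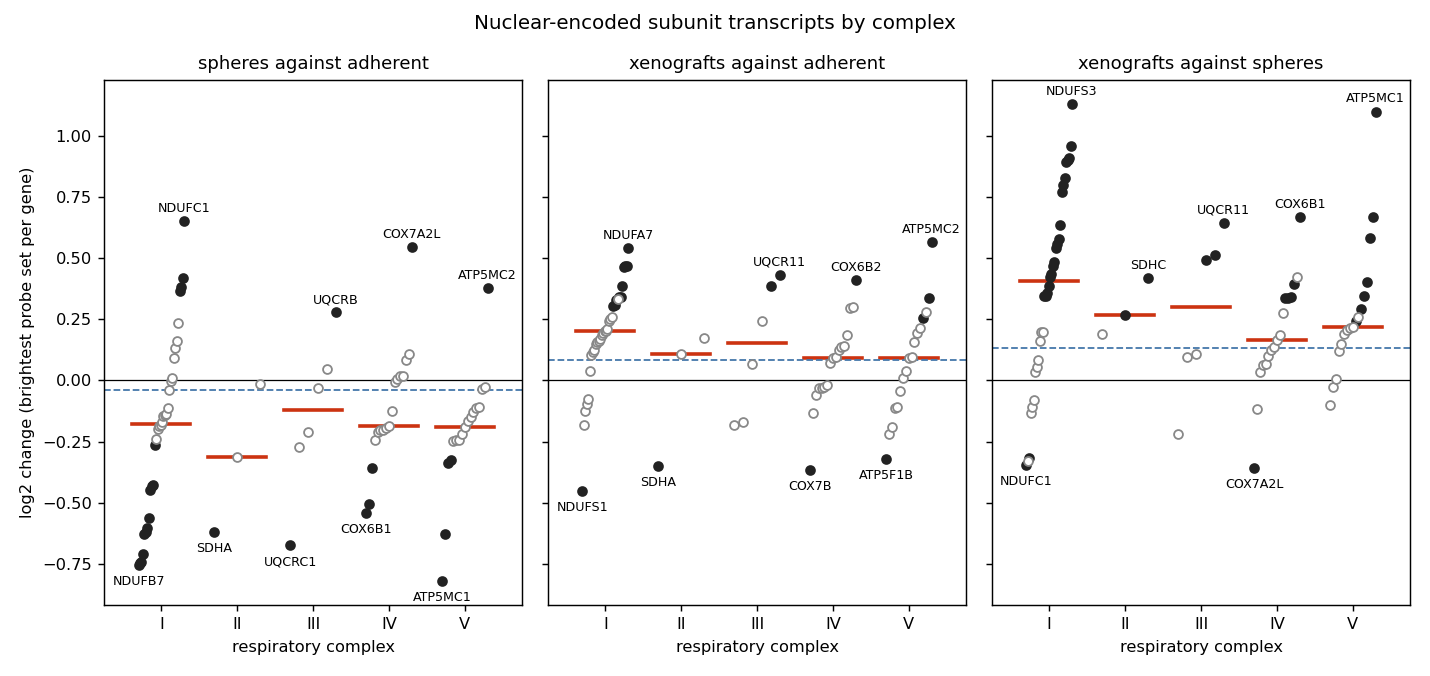
Log2 change of each gene (brightest probe set) by respiratory complex in the 3 comparisons; black points were called at an adjusted p under 0.05 in limma, open points were not, red bars are the medians of the complex and the dashed line is the median of all genes. The medians of every complex lay below 0 in spheres and above 0 in xenografts, and NDUFC1, COX7A2L, ATP5MC2 and UQCRB stood out as higher in spheres.

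Complex II, succinate dehydrogenase, which also belongs to the tricarboxylic acid cycle, had 3 measured genes. SDHA, the flavoprotein that oxidises succinate, had levels of 9.15, 9.21 and 9.30 in adherent cells, 8.62, 8.64 and 8.55 in spheres and 8.90, 8.77 and 8.94 on the xenograft arrays. It was lower than adherent cells in both settings, by -0.62 ± 0.09 in spheres and -0.35 ± 0.09 in xenografts (adjusted p = 0.0003 and 0.016), and the groups did not overlap. Its probe set is of a type that can also bind related transcripts. SDHC and SDHD anchor the enzyme in the membrane. SDHC changed by -0.31 and 0.11 against adherent cells, neither called, and by 0.42 between xenografts and spheres (adjusted p = 0.011). SDHD changed by -0.01, 0.17 and 0.19 in the 3 comparisons and was not called in any.

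In complex III, which passes electrons to cytochrome c, UQCRC1, a core subunit, showed the clearest change. Its levels were 10.33, 10.27 and 10.45 in adherent cells, 9.66, 9.67 and 9.70 in spheres and 9.90, 10.18 and 10.41 on the xenograft arrays. The spheres were lowest, by -0.67 ± 0.12 (adjusted p = 0.0014), and the xenografts overlapped the adherent cells. The brightest probe set of UQCRC2, the other core subunit, was called in no comparison (0.05, -0.17 and -0.22). A second one, at 9.78 to 10.38, was called lower in xenografts than in adherent cells (-0.46, adjusted p = 0.003) and than in spheres (-0.41, adjusted p = 0.0035), and a remaining dim one by -1.04 and -1.26. The small subunits UQCR11 and UQCRB were called higher in xenografts against adherent cells. UQCR11 changed by -0.21 in spheres, which was not called, and by 0.43 ± 0.08 in xenografts (adjusted p = 0.0036), with xenograft levels of 11.48, 11.38 and 11.38 against 11.02, 10.92 and 11.02. Its less bright probe set fell by 1.00 in spheres and changed by 0.06 in xenografts. UQCRB, the ubiquinone-binding subunit, rose in both spheres (0.28, adjusted p = 0.029) and xenografts (0.38, adjusted p = 0.0069). A second bright probe set of UQCRB gave 0.34 and 0.45, but a less bright one (7.50 to 8.40 log2 units) gave -0.14 in spheres, not called, and a dim one (2.44 to 3.22) fell by 0.67.

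Complex IV is cytochrome c oxidase. Of 17 genes, 3 were lower and 1 higher in spheres, 1 was higher and 1 lower in xenografts against adherent cells, and 5 were higher and 1 lower in xenografts against spheres, with medians of -0.18, 0.09 and 0.16. The sphere shares were 17.6% lower and 5.88% higher, beside 16.3% and 13.5% of all genes and 31.2% and 17.6% of bright genes. Against adherent cells, the xenograft shares were 5.88% in each direction. Of all genes, 12.6% were higher and 14.3% lower, and of bright genes 11.5% and 22.6%. Against spheres, 29.4% were higher and 5.88% lower, beside 25.7% and 18.3% of all genes and 28.9% and 25.6% of bright genes. COX6B1, which bridges the monomers of the enzyme, had levels of 11.72, 11.55 and 11.75 in adherent cells, 11.18, 11.09 and 11.13 in spheres and 11.65, 11.87 and 11.88 on the xenograft arrays. It fell by 0.54 ± 0.10 in spheres (adjusted p = 0.0015) and overlapped adherent cells in xenografts. COX7B, a small membrane subunit, was lower in both settings (-0.50 and -0.37, adjusted p = 0.0011 and 0.011), with levels of 12.21 to 12.32 in adherent cells, 11.76 to 11.79 in spheres and 11.81 to 11.98 in xenografts. COX4I1, the ubiquitous form of a regulatory subunit, fell by 0.36 in spheres (adjusted p = 0.014).

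COX7A2L, a relative of COX7A that takes part in joining complexes III and IV into supercomplexes, went against its complex. Its levels were 11.78, 11.79 and 11.84 in adherent cells, 12.39, 12.32 and 12.32 in spheres and 11.96, 11.94 and 12.06 on the xenograft arrays. The spheres were highest (0.55 ± 0.08, adjusted p = 0.00045), and the xenografts lay between without overlap but were not called against adherent cells (0.19 ± 0.08, adjusted p = 0.13). COX7A2, the ubiquitous form of subunit 7A, changed by 0.01 and 0.07 and was not called.

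The tissue forms of complex IV subunits were dim in every group. COX6A2, the muscle form of subunit 6A, averaged 4.38 log2 units in adherent cells, 4.40 in spheres and 4.68 on the xenograft arrays and was not called in any comparison. COX7A1, the muscle form of subunit 7A, measured 5.67, 5.69 and 5.85 in adherent cells and 5.67, 5.50 and 5.66 in spheres, and in xenografts 6.94 on replicate 1 against 5.64 and 5.53 on the other arrays, so that the single array sets its mean change of 0.30 ± 0.28 (adjusted p = 0.47). COX4I2, COX7B2 and COX8C, which are forms of lung, germ cells and other restricted tissues, were also not called. COX6B2, the testis form of subunit 6B, was called higher in xenografts against adherent cells (0.41 ± 0.10, adjusted p = 0.01), from 4.85 ± 0.13 (SD, n = 3) to levels of 5.28, 5.27 and 5.24. The ubiquitous partners COX6A1, COX8A and COX4I1 were called higher in xenografts than in spheres (0.34 each) and not in xenografts against adherent cells.

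COX6A1 was read by a pair of probe sets that disagreed. The bright one changed by 0.14 in xenografts against adherent cells, which was not called. The other read 3.44, 3.10 and 3.73 in adherent cells, 3.73, 3.48 and 3.33 in spheres and 8.26, 7.28 and 7.78 on the xenograft arrays, an increase of 4.35 ± 0.22 (limma, adjusted p = 4.8e-07). Of 54613 probe sets, 5 were this low in culture (a mean under 4 over the 6 adherent and sphere arrays) and rose by at least 4 log2 units in xenografts. The largest rise among these 5 was that of a probe set annotated to HBE1, an embryonic globin gene, and 3 of the 5 had no single gene annotation.

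In complex V, the ATP synthase, the 3 genes that encode the identical mature c subunit of its rotating ring diverged. ATP5MC1 measured 10.57, 10.44 and 10.63 in adherent cells, 9.79, 9.68 and 9.71 in spheres and 10.65, 10.86 and 10.97 on the xenograft arrays. Its fall of 0.82 ± 0.10 in spheres was the largest of any member (adjusted p = 0.00011), and xenografts were above spheres by 1.10 ± 0.10 (adjusted p = 9.8e-06) while the 0.28 against adherent cells was not called (adjusted p = 0.074). ATP5MC2 rose from 10.96 to 11.13 in adherent cells to 11.34, 11.49 and 11.39 in spheres and 11.42, 11.68 and 11.68 in xenografts. These changes, 0.38 ± 0.10 and 0.56 ± 0.10, were both called (adjusted p = 0.016 and 0.0021), and the adherent arrays lay below all others. ATP5MC3 was lower in spheres (-0.34 ± 0.10, adjusted p = 0.025), with its other probe sets also lower and reaching -0.89, and was not called in xenografts (-0.19). The probe set of ATP5MC2 is of a type that can bind more than 1 transcript, and its other probe set was dim (3.57 to 4.03 log2 units) and called in no comparison.

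Among the remaining complex V genes, ATP5PD, part of the peripheral stalk that holds the catalytic head still, had levels of 12.32, 12.26 and 12.36 in adherent cells, 11.70, 11.62 and 11.74 in spheres and 12.26, 12.37 and 12.43 on the xenograft arrays. The spheres were lower by -0.63 ± 0.09 (adjusted p = 0.00024), and xenografts and adherent cells overlapped. A dim second probe set of ATP5PD moved oppositely in spheres, by 0.45. The catalytic subunit ATP5F1B was called lower in xenografts (-0.32, adjusted p = 0.038), and ATP5F1A, with which it forms the head, changed by -0.22 and was not called. ATP5F1D, in the central stalk, was called higher in xenografts (0.34, adjusted p = 0.035) and reached 0.58 above spheres. Of the membrane subunits only ATP5MJ was called against adherent cells (0.25 in xenografts, adjusted p = 0.048), and ATP5MF was read only by a dim probe set (4.39 to 4.96 log2 units).

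**Figure D4:**
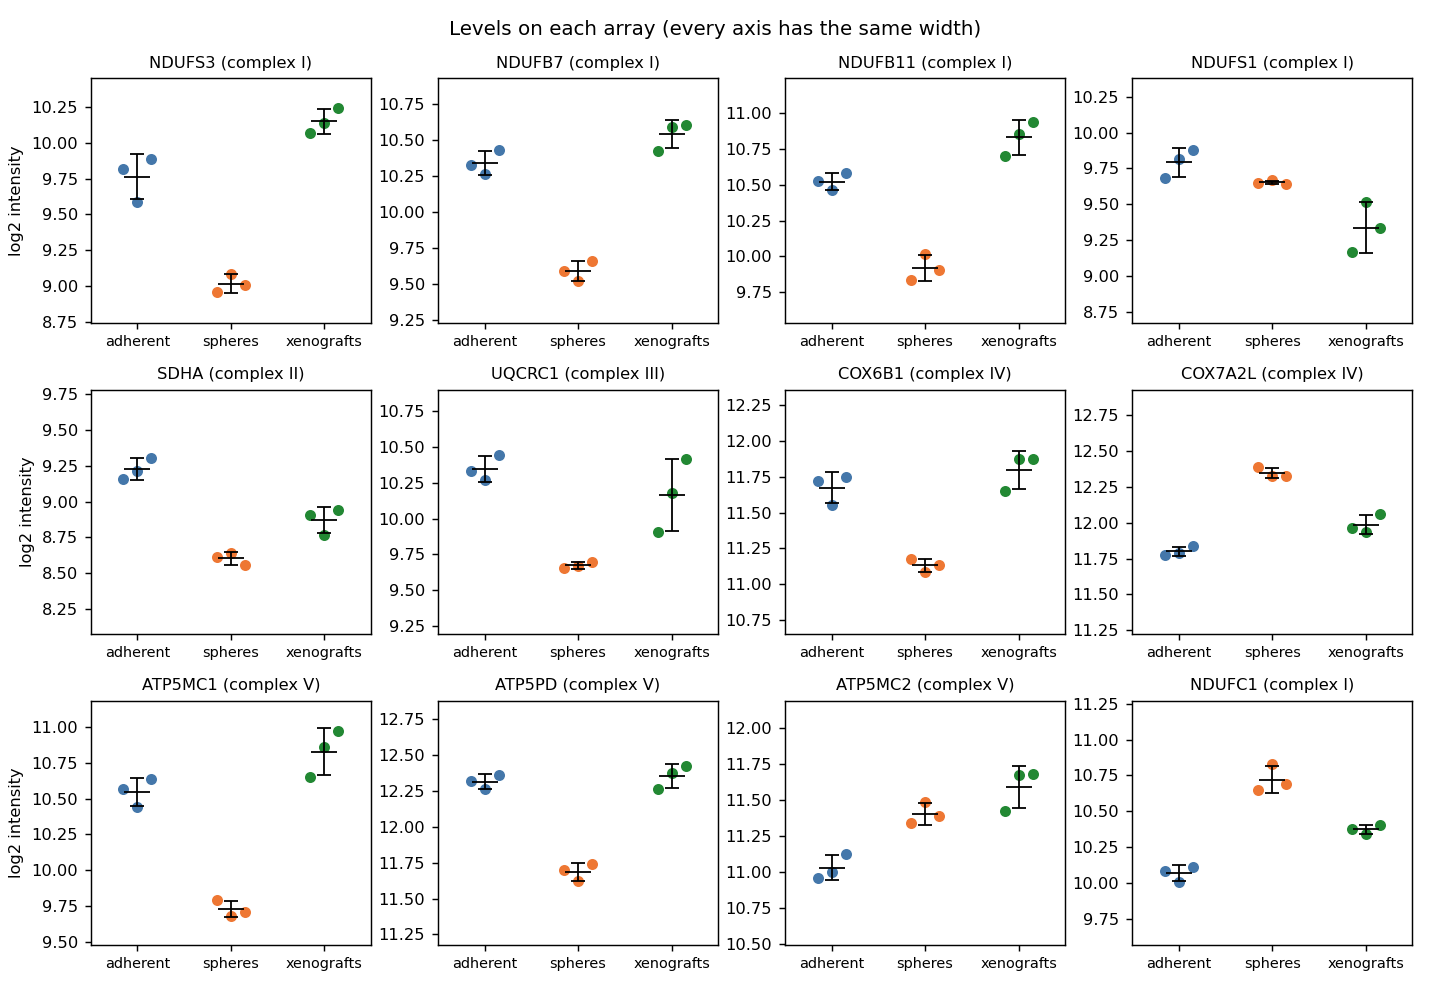
Log2 intensity on each array for 12 oxidative phosphorylation genes in adherent cells (blue), spheres (orange) and xenografts (green), with the mean and SD (n = 3 arrays); every axis covers the same width of log2 units. NDUFS3, NDUFB7, NDUFB11, ATP5MC1 and ATP5PD were lowest in spheres, NDUFC1 and COX7A2L were highest in spheres, and SDHA was below adherent cells in both settings.

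Over the 3 comparisons together, 27 of the 77 genes were called in none by the brightest probe set, among them COX5B, COX6C, COX7C, UQCRQ, ATP5F1A and NDUFV1. A further 13 were called lower in spheres and higher in xenografts than in spheres with no call in xenografts against adherent cells, and 13 were called only between xenografts and spheres. COX5A was also called in none by its brightest probe set, but its other one (6.86 to 8.04 log2 units) fell by 1.00 in spheres. Probe sets of 10 genes were called in opposite directions within a comparison: ATP5PD, NDUFB4 and NDUFB6 in spheres and between xenografts and spheres, NDUFA10 and UQCRB in both comparisons with adherent cells, and ATP5F1C, NDUFB1, NDUFB8, NDUFS1 and SDHC between xenografts and spheres. For ATP5F1C these last changes ran from -1.34 to 0.45, with 3 of 4 probe sets higher, for NDUFB1 from -0.40 to 0.63, and a dim probe set of NDUFB4 rose by 0.65 in spheres where the brightest one fell by 0.63. ATP5MC2, NDUFA7, NDUFB5 and UQCRB were called higher than adherent cells in both settings, and SDHA and COX7B lower in both. On chromosome 19, which holds 11 of the 77 genes, 9 were called higher in xenografts than in spheres, with a median change of 0.47, against 30.8% higher and a median of 0.18 among all 1320 genes placed there. The 66 other members had 29 higher, 3 lower and a median of 0.22.

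Promoter sequence of the members was also examined. The stretch from 250 bases before to 50 bases after the gene start (RefSeq, GRCh38.p14) was found for 64 of the 77 genes and searched on both strands. The letters GCGCANGCG, a core of the site for nuclear respiratory factor 1 (NRF-1), stood in 21 of the 64 promoters (32.8%) and in 11.2% of the 15384 promoters of genes on the array. The letters CCGGAAG, bound by GA-binding protein (GABP) and other ETS factors, stood in 18 of the 64 (28.1%) and in 14.4%. AAGATGGCG, a YY1 site, stood in 7 (10.9%) and in 2.76%. TCAAGGTCA, a site for estrogen-related receptors, stood in 1 of the 64 (1.56%), that of SDHD, and in 0.267%. CAGCTG, an E-box read by myogenic factors, stood in 15 (23.4%) and in 17.8%. Members with the NRF-1 letters had median changes of -0.20 in spheres, 0.16 in xenografts and 0.35 between them, against -0.17, 0.13 and 0.22 for members without.

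The 120 bases just before the start are shown, with these motifs in capitals, for genes picked by hand with their values known. A link between motif and direction was not tested on them. NDUFS3 (chr11:47578954-47579073, plus strand), lowest in spheres and highest in xenografts, holds the GABP letters once on each strand, and SDHA (chr5:218200-218319, plus strand), lower in both settings, repeats the NRF-1 letters. UQCR11 (chr19:1605463-1605582, minus strand), higher in xenografts, holds both kinds, and ATP5MC1 (chr17:48892667-48892786, plus strand), which fell most in spheres, holds only an E-box. NDUFC1 (chr4:139302552-139302671, minus strand) and COX7A2L (chr2:42361218-42361337, minus strand), both highest in spheres, hold none of these letters here.
NDUFS3: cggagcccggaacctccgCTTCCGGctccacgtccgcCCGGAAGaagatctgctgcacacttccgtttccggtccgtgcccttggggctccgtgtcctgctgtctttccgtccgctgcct
SDHA: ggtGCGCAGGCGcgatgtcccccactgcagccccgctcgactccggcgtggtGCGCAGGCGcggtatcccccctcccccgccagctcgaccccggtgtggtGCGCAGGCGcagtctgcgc
UQCR11: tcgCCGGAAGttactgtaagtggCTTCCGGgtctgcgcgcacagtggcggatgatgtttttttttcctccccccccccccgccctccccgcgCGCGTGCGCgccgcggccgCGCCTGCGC
ATP5MC1: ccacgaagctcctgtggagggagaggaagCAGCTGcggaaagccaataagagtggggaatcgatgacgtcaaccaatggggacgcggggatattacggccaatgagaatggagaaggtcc
NDUFC1: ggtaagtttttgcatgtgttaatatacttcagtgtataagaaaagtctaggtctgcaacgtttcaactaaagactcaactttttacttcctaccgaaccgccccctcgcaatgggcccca
COX7A2L: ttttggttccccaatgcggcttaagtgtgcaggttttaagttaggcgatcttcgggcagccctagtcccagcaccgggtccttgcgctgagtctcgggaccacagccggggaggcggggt

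Subunits outside the symbol pattern gave a comparison with the second genome. Of the 13 protein genes of mitochondrial DNA, 7 had a probe set of their own, and 0 of these were called against adherent cells by limma or by the methods' t-test after adjustment. At an unadjusted p under 0.05, limma had 1 in spheres (ND6, a complex I subunit) and 1 in xenografts (ND4, of the same complex), and the methods' t-test 0 and 0. Their changes ran from -0.14 to 0.30 in spheres and from -0.14 to 0.43 in xenografts. ND6 was lower in xenografts than in spheres (-0.44, adjusted p = 0.018), and the adherent arrays themselves spread widely for this list, with median differences from -0.26 to 0.24. CYC1, the cytochrome c1 of complex III, and CYCS, the cytochrome c that links complexes III and IV, were both lower in spheres by -0.35 (adjusted p = 0.023 and 0.011). COXFA4, the current symbol of NDUFA4, a subunit of complex IV, was called in no comparison (-0.12, 0.03 and 0.15), whereas its hypoxia-inducible relative COXFA4L2 (NDUFA4L2) rose in spheres by 0.59 (adjusted p = 0.0034).

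Assembly factors put the complexes together without remaining in them. Of 16 complex I assembly factors, 4 were lower and 2 higher in spheres, 3 higher in xenografts, and 5 higher in xenografts against spheres, with medians of 0.05, 0.12 and 0.15. These were 25% lower and 12.5% higher in spheres, beside 16.3% and 13.5% of all genes, and 18.8% higher in xenografts, beside 12.6%. Against spheres, 31.25% were higher in xenografts, beside 25.7%. On single arrays, the median level of this list was 8.56 to 8.75. Of all genes with mean levels of 7.91 to 8.75 log2 units, 30.6% were lower and 19.9% higher in spheres. In xenografts, 13.1% of them were higher against adherent cells and 27.6% against spheres. ECSIT, which takes part in building the membrane arm, fell by 0.66 in spheres and rose by 0.71 in xenografts (adjusted p = 0.0045 and 0.004). Of 38 factors for complexes II to V, 11 were lower and 7 higher in spheres, that is 28.9% and 18.4%. In xenografts, 10 were higher and 5 lower, that is 26.3% and 13.2%, and the medians were -0.15 and 0.22. Of all genes, 16.3% were lower and 13.5% higher in spheres, and 12.6% higher and 14.3% lower in xenografts. The median level of this list was 8.56 to 8.88. Of all genes at 7.91 to 8.75, 30.6% were lower and 19.9% higher in spheres, and 13.1% higher and 26% lower in xenografts. PET100 and COA3, which act on complex IV, were lower in spheres (-0.53 each) and higher in xenografts (0.69 and 0.48), whereas ATPAF2, a chaperone of the ATP synthase head, was lower in both (-1.12 and -0.77), and SDHAF4, a factor for SDHA, rose by 1.70 in spheres.

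Among 20 regulators of mitochondrial transcription and biogenesis, 7 were lower and 2 higher in spheres, and 3 were higher and 2 lower in xenografts. The shares were 35% and 10% in spheres, beside 16.3% and 13.5% of all genes, and 15% and 10% in xenografts, beside 12.6% and 14.3%. On single arrays, the median level of this list was 7.67 to 8.14. Of all genes at 7.02 to 7.91 log2 units, 26.7% were lower and 21.4% higher in spheres, and of those at 7.91 to 8.75, 30.6% and 19.9%. In xenografts, 13.8% and 13.1% of these 2 sets were higher and 25.3% and 26% lower. NRF1, the gene of nuclear respiratory factor 1, was lower in spheres (-0.76, adjusted p = 0.00025) and not called in xenografts (-0.10). GABPB1, a subunit of GABP, changed by -0.85 and -0.06. PPARGC1B, a coactivator of biogenesis, was lower in both (-0.77 and -1.52), and ESRRG, an estrogen-related receptor, was higher in xenografts (1.18, adjusted p = 0.0058). TFB1M, a mitochondrial RNA methyltransferase, rose in both settings (1.13 and 0.54).

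The fuel pathways that feed or bypass the chain were read from the same arrays. Of 16 genes of the tricarboxylic acid cycle and pyruvate dehydrogenase, 7 were lower in spheres, with a median change of -0.27, and 1 was lower in xenografts. These were 43.75% and 6.25%. For each list of this paragraph, the shares of all genes were 16.3% lower and 13.5% higher in spheres. In xenografts they were 14.3% lower and 12.6% higher. Of the bright genes, 31.2% were lower and 17.6% higher in spheres, and 22.6% lower and 11.5% higher in xenografts. CS, citrate synthase, fell by 0.51 and OGDH, of the oxoglutarate dehydrogenase complex, by 0.53 in spheres. Of 25 genes of glycolysis and the pyruvate dehydrogenase kinases, 7 were higher and 6 lower in spheres, and 10 were higher and 1 lower in xenografts. These were 28% and 24%, and 40% and 4%. PDK1, a kinase that inactivates pyruvate dehydrogenase, rose in both (1.23 and 1.00). SLC2A3, a glucose transporter, rose by 2.53 in spheres, and ALDOC, an aldolase, by 2.09 in xenografts. The largest falls of this list against adherent cells were those of PKM in spheres (-0.83) and PDK3 in xenografts (-0.54). Of 10 genes of the hypoxic switch in respiration, 7 were higher in spheres (median 0.65), including BNIP3 (1.25), a receptor for the removal of mitochondria, and the mitochondrial protease LONP1 (1.10), and 3 were higher and 1 lower in xenografts, where BNIP3 reached 2.03. The shares of the hypoxic list were 70% higher in spheres, and 30% higher and 10% lower in xenografts. Its largest fall in xenografts against adherent cells was that of EGLN3 (-0.67). PDK1, LONP1 and COXFA4L2 each stand on more than 1 of these lists. Among 20 carriers and import factors, 7 were lower and 3 higher in spheres and 2 in each direction in xenografts. These were 35% and 15% in spheres, near the bright genes, and 10% each way in xenografts, below all genes. HSPE1, a chaperonin of the matrix, was at -0.81 in spheres. SLC25A4, the muscle form of the ATP and ADP carrier, was at 0.68 in xenografts.

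Markers of adult muscle and of fibroblasts moved with the xenograft group, and those of other tissues moved little beyond other dim genes. Of 15 adult skeletal muscle markers, 6 were higher and 1 lower in xenografts against adherent cells, the mean over the list being 4.90 to 4.95 on the adherent arrays, 4.74 to 4.82 on the sphere arrays and 5.35 to 5.69 on the xenograft arrays, and ACTA1 (3.22) and MYH4 (2.40) rose most. Of 10 fibroblast and matrix markers 5 were higher and 1 lower, with list means of 5.56 to 5.68 in adherent cells and of 6.78, 6.06 and 6.10 in xenografts, replicate 1 being highest as it was for COX7A1. Endothelial, leukocyte, blood and adipocyte markers had list means of 3.87 to 4.85 in adherent cells and 4.08 to 5.14 in xenografts, with 1 of 10, 1 of 9, 2 of 5 and 1 of 8 called higher. Apart from the blood markers, these shares (10%, 11.1% and 12.5%) lay no higher than the 12.6% of all genes. Their median changes were 0.22, 0.17, 0.27 and 0.22. All genes with mean levels of 3.64 to 4.42 log2 units had a median of 0.17, and those at 4.42 to 5.18 one of 0.18. Apart from the blood markers, these list medians were thus near those of dim genes on the same xenograft arrays. Whether the rise of the dim genes has the same source as that of the lists was not tested. The part of the cells that these lists mark in the xenograft results was not tested. Without xenograft replicate 1, 19 of the 77 genes were higher and 3 lower against adherent cells.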

How the data were processed

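There were 9 Affymetrix U133 Plus 2.0 arrays, with adherent Rh30 cells, spheres and xenografts as 3 biological replicates each per the study's methods. The authors normalized the arrays by RMA (background correction, quantile normalization, 1 value per probe set) and deposited log2 values; the RMA software version is not given in the sources used here. RMA is meant to give every array the same overall distribution, which hides a change shared by all genes. The deposited values did not fully share 1 distribution. Their upper quartile was 6.88 to 6.89 on the xenograft arrays and 7.02 to 7.09 on the adherent and sphere arrays. The values hold no detection calls, so dim probe sets were not tested against background. The number of arrays limits the precision. Gene symbols came from the platform annotation, and probe sets with several symbols or none were left out of gene summaries.

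Here 62 control probe sets were removed and limma (3.58.1, R 4.3.3) was fitted to 54613 probe sets with 1 mean per group and empirical Bayes variances; p-values were adjusted by Benjamini-Hochberg over all probe sets of a comparison, and 95% intervals were taken from the same fit. The fit was tested on simulated data. The methods' t-test, the equal-variance unpaired test, was run as an alternative. The members and lists were chosen with earlier results of these data known. Genes were named as follows: within each complex the 3 largest rises and falls past the threshold in each comparison, all SDH genes, the tissue forms of complex IV with their partners, NDUFA4 and its relatives, the mitochondrial DNA-encoded subunits, and members whose probe sets disagreed; others were chosen after their values were seen. Promoters were from RefSeq. Replicate numbers were not treated as pairs.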

Additional observations from a re-analysis of the deposited data

Results flagged for a closer look

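NDUFB10, NDUFB11, NDUFB6 and NDUFS3, all of complex I, were called lower than adherent cells in spheres and higher in xenografts, so that the effects of the 2 settings differed in direction. The difference between the settings is the xenograft against sphere contrast of the same limma fit. It was 0.90 for NDUFB10 (adjusted p = 6.1e-05), 0.91 for NDUFB11 (adjusted p = 2.4e-05), 0.77 for NDUFB6 (adjusted p = 6.6e-05) and 1.13 for NDUFS3 (adjusted p = 7.0e-06). Every xenograft array lay above every sphere array for each gene. The genes were flagged because they were called in each comparison, this contrast included, so these values give no separate support.

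Probe sets that did not represent their gene in the summaries showed 4 signals at least 2-fold above adherent cells. A second probe set of COX6A1 was 4.35 log2 units higher in xenografts, while the brightest one changed by 0.14. A dim probe set of NDUFA10 rose by 1.52 in spheres, from 4.33, 4.46 and 4.39 to 5.24, 6.52 and 5.97, while the brightest one changed by 0.01. A dim probe set of NDUFA5 rose by 1.48 in spheres, from 2.69, 2.08 and 2.63 to 3.58, 4.13 and 4.13, while the brightest one changed by 0.23, which was not called. A probe set of NDUFB8 rose by 1.20 in spheres, from 6.69, 6.04 and 6.63 to 7.51, 7.56 and 7.89, while the brightest one changed by -0.04. Falls of at least 2-fold against adherent cells were also seen, in spheres for probe sets of NDUFA6 (-1.36), ATP5F1E (-1.22) and, just past 2-fold, UQCR11 and COX5A, and in xenografts for one of UQCRC2 (-1.04). Of the 72 probe sets that did not represent their gene, 22 were called lower and 9 higher in spheres. Which transcript each of these probe sets bound was not tested. With 3 arrays per group, single arrays were not tested for lying far from their group.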

How the results depend on the processing

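The median change of the 77 genes stayed negative in spheres and positive in xenografts, in both xenograft comparisons, under every alternative run, and its size against adherent cells followed the scaling. It was -0.12 in spheres and 0.22 in xenografts after quantile normalization, -0.22 and 0.10 after centring the arrays on their medians, and -0.12 and 0.23 with each array centred on the median of bright genes, an alternative chosen after seeing the data. It was -0.15 and 0.087 with probe sets that carry no suffix for shared or variant transcripts, and -0.14 in spheres when a gene's probe sets were averaged. Leaving out an array gave medians of -0.19 to -0.17, 0.12 to 0.17 and 0.25 to 0.29 in the 3 comparisons.

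Genes lower in spheres, 21 in the report, numbered 32 with an intensity trend and robust estimation, 33 with array weights and 39 by the methods' t-test unadjusted. Genes higher in xenografts against adherent cells, 16 in the report, numbered 10 with arrays centred on their medians, 25 with arrays centred on bright genes, 7 with unsuffixed probe sets, 26 by the methods' t-test unadjusted and 7 after adjustment, while the 4 lower genes numbered 7 and 1 by those t-tests. Genes lower in xenografts against spheres numbered 8 with unsuffixed probe sets. With an added 2-fold threshold, 0 genes were called in either direction against adherent cells, and 2 higher and 0 lower between xenografts and spheres. Leaving out an array gave 5 to 7 higher and 17 to 21 lower in spheres, 7 to 19 higher and 2 to 4 lower in xenografts against adherent cells, and 32 to 37 higher and 2 to 3 lower between xenografts and spheres.

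Changed direction of a named gene came only from the choice of probe set. With unsuffixed probe sets ATP5MC2 was at -0.16, UQCRB at -0.14 and ATP5PD at 0.45 in spheres, and ATP5PD at -0.55, COX4I1 at -0.087 and NDUFS1 at 0.59 in xenografts against spheres. With averaged probe sets UQCRB was at -0.048 in spheres and NDUFS1 at 0.057 in xenografts against spheres. Of 1091 values of named genes over all alternatives, 927 kept their direction and call, 156 lost the call and 8 changed direction.

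Replicate numbers did not pair the arrays: 2 of 9 arrays correlated best with an array of their own number, and same-numbered deviations correlated at -0.18 to 0.18. With a replicate block, 6 genes were higher and 20 lower in spheres, 11 higher and 3 lower in xenografts against adherent cells, and 36 higher and 3 lower between xenografts and spheres. Signal over background limits the dim probe sets, for which the files hold no detection call.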
